A study of Rattus norvegicus and Ovis aries with 113 samples.

Results

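Tubulin isotypes are the separate genes that encode the alpha and beta subunits of the microtubule. The members described here were chosen by name, as 10 symbols matched in upper case: TUBA1A, TUBA4A and TUBA8 for alpha tubulin, and TUBB1, TUBB2A, TUBB2B, TUBB3, TUBB4A, TUBB4B and TUBB6 for beta tubulin. The rat count table held all 10 of them among 38675 genes. The sheep table matched 7 among 31304 genes, and TUBA1A, TUBB2A and TUBB3 were not analysed here in sheep. RNA was sequenced from 5 post-pubertal male sheep, each giving 1 sperm sample and 10 dissected brain regions: frontal cortex (FC), prefrontal cortex (PC), motor cortex (MC), posterior parietal cortex (PPC), visual cortex (VC), entorhinal cortex (EC), hippocampus (Hip), basal ganglia (BG), cerebellum (CB) and pons. The sheep are named 687, 688, 690, 694 and 699 in the labels. In Sprague Dawley rats, whole brain and sperm came from 15 post-pubertal males, with the sperm libraries described as taken from seminal fluid, and whole brain and ovary came from 14 females. The labels give no specific treatment, and name no altered genotype and no age in weeks or years. Sheep and rat RNA were extracted and made into libraries with different kits, so species and preparation cannot be told apart.

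Microtubules are built from dimers of an alpha and a beta tubulin, and mammals make several isotypes of each whose sequences differ mainly in the acidic tail that faces the cytoplasm. TUBB2A, TUBB2B, TUBB3 and TUBB4A are known as isotypes of nervous tissue, with TUBB3 used as a marker of neurons and TUBB4A abundant in myelinating oligodendrocytes. TUBB4B is known from motile cilia and flagella, TUBB1 from blood platelets, and TUBB6 is a widely distributed form.

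In the rat, the beta members with the largest falls from brain to ovary and from brain to sperm were Tubb2a, Tubb2b, Tubb3 and Tubb4a, and Tubb4b was the one member called in neither comparison (values below). The 250 bases before the RefSeq gene start are shown for these 5, to set the brain-high beta isotypes beside the beta isotype found at overlapping levels in the 3 rat tissues. Tubb4b is not an unchanged gene: it was lower than brain in the ovary of 11 of 14 rats and the sperm of 14 of 15. Without rat 14 it met the rule in sperm (log2 fold change -1.09). Sequences are from RefSeq on build GRCr8, are written 5′ to 3′ on the gene's own strand, and have capitals where TATAA or CCAAT was found on either strand. They are chr17:31001936-31002185 (+) for Tubb2a, chr17:30952836-30953085 (+) for Tubb2b, chr19:68365437-68365686 (+) for Tubb3, chr9:2012282-2012531 (−) for Tubb4a and chr3:28438456-28438705 (−) for Tubb4b.
Tubb2a: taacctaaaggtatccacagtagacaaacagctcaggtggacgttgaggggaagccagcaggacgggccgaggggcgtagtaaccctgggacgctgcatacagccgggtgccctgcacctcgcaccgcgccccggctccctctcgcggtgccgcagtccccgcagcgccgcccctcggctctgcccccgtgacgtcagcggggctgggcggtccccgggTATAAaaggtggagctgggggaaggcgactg
Tubb2b: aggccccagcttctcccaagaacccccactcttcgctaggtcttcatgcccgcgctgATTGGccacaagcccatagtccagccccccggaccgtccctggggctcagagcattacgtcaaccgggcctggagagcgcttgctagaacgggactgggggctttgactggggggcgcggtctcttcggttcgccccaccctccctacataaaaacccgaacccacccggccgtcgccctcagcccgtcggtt
Tubb3: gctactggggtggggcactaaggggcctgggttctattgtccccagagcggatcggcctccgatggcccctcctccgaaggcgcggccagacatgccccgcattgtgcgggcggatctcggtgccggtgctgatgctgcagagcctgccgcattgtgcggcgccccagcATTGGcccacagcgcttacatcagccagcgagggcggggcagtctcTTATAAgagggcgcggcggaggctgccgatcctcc
Tubb4a: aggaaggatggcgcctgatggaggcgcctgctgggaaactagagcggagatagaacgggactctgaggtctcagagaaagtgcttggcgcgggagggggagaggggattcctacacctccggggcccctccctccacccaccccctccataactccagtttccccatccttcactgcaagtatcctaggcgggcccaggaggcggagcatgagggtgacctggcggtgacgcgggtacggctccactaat
Tubb4b: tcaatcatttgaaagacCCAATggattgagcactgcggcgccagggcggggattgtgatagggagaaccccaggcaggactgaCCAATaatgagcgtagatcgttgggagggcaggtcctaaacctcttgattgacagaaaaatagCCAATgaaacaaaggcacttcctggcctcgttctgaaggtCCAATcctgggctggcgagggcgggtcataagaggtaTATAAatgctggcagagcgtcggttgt

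Matches to 4 motifs were counted in the same window of the 10 members and of all 27457 promoters, on both strands. TATAA was found in 5 of 10 members and in 24.1% of all promoters. Within the last 50 bases before the start it was found in 4 of 10 members and in 6.12% of promoters. CCAAT was present in 6 of 10 members against 34.3%, GGGCGG in 6 of 10 against 32.4%, and TGACGTCA in Tubb2a alone against 1.7%. Tubb4b held 4 CCAAT matches and 1 TATAA match. The Tubb3 match TTATAA reads TATAA on both strands and overlaps itself. Tubb4a, the member with the largest difference between brain and both other tissues, held none of the 4 motifs in this window, and neither did Tuba8. These matches describe letters only.

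Library totals ran from 46.7 to 72.4 M counts in sheep brain, from 13.7 to 65.1 M in sheep sperm, from 38.2 to 119 M in rat brain, from 50.5 to 60.3 M in ovary and from 13.7 to 65.1 M in rat sperm. Counts on ribosomal RNA-like or placeholder genes took 22.4 to 85.2% of the sheep sperm libraries and 3.89 to 14.6% of sheep brain. In rat they reached 86.9% and 83.1% in the brains of rats 1 and 4, and rat sperm 16 and 17 stood apart in depth with 26.5 and 13.7 M. No 2 libraries were identical. Summed levels of marker genes are given as CPM, the counts in proportion to a library total scaled by the trimmed mean of M values (TMM), as are all levels here. A spermatid and sperm list of 12 genes summed to 250 to 8438 CPM in sheep sperm against 23.3 to 68.8 in sheep brain, and to 372 to 36224 in rat sperm against 46.2 to 60.8 in male rat brain. Sheep sperm also held neutrophil genes (13823 to 158833 CPM, all 5 genes found) and stratified squamous epithelium genes (4862 to 92301 CPM, 5 of 6 genes found), which in sheep brain summed to at most 5.99 and 2.75 CPM. In rat sperm an epididymis and vas deferens list of 7 genes summed to 71 to 889 CPM, against 6.93 to 9.94 CPM in male brain. A microglia and macrophage list of 5 genes summed to 31.9 to 691 CPM (median 93.2) there and 116 to 219 CPM (median 161) in male brain. The part of such cells in the rat sperm tubulin levels was not tested. In ovary the granulosa list summed to 1062 to 4283 CPM and the neuron list to 9.76 to 36.9 CPM, against 4326 to 5419 CPM for the neuron list in female brain. In these bulk samples fewer cells of a type and less RNA per cell cannot be told apart.

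Rat brain expressed 8 of the 10 members at 15.7 CPM or more in every male library, while TUBB1 and TUBB6 stayed at or below 3.37 CPM. Among the 7 beta members, most reads were those of TUBB4A, TUBB2A, TUBB3 and TUBB2B. In male brain TUBB4A made up 45.3% ± 1.49 (SD, n = 15) of the reads of the 7 beta members, TUBB2A 24.4% ± 0.91, TUBB3 17.9% ± 0.974, TUBB2B 9.87% ± 0.817 and TUBB4B 2.41% ± 0.588. Among the 3 alpha members, TUBA1A, the alpha isotype of developing and adult neurons, made up 70.6% ± 2.43, TUBA4A 27.6% ± 2.4 and TUBA8 1.73% ± 0.313. These are shares of reads, so longer transcripts count more and the order of the shares is not an order of molecules. They also leave out the tubulins that are no members. Among all 9 beta tubulin genes of the rat table, TUBB5, the widely expressed class I beta tubulin, took 18.5% ± 0.937 in male brain and TUBB4A 36.8% ± 1.47. Among all 8 alpha genes, TUBA1B took 38.9% ± 0.754 and TUBA1A 37.5% ± 2.03. The proportions between members hardly varied from rat to rat: the log2 ratio of TUBB2A to TUBB2B was 1.31 ± 0.10 in 15 male brains and 1.33 ± 0.08 in 14 female brains, and that of TUBB3 to TUBB2A was -0.45 ± 0.10 and -0.44 ± 0.05.

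**Figure D1:**
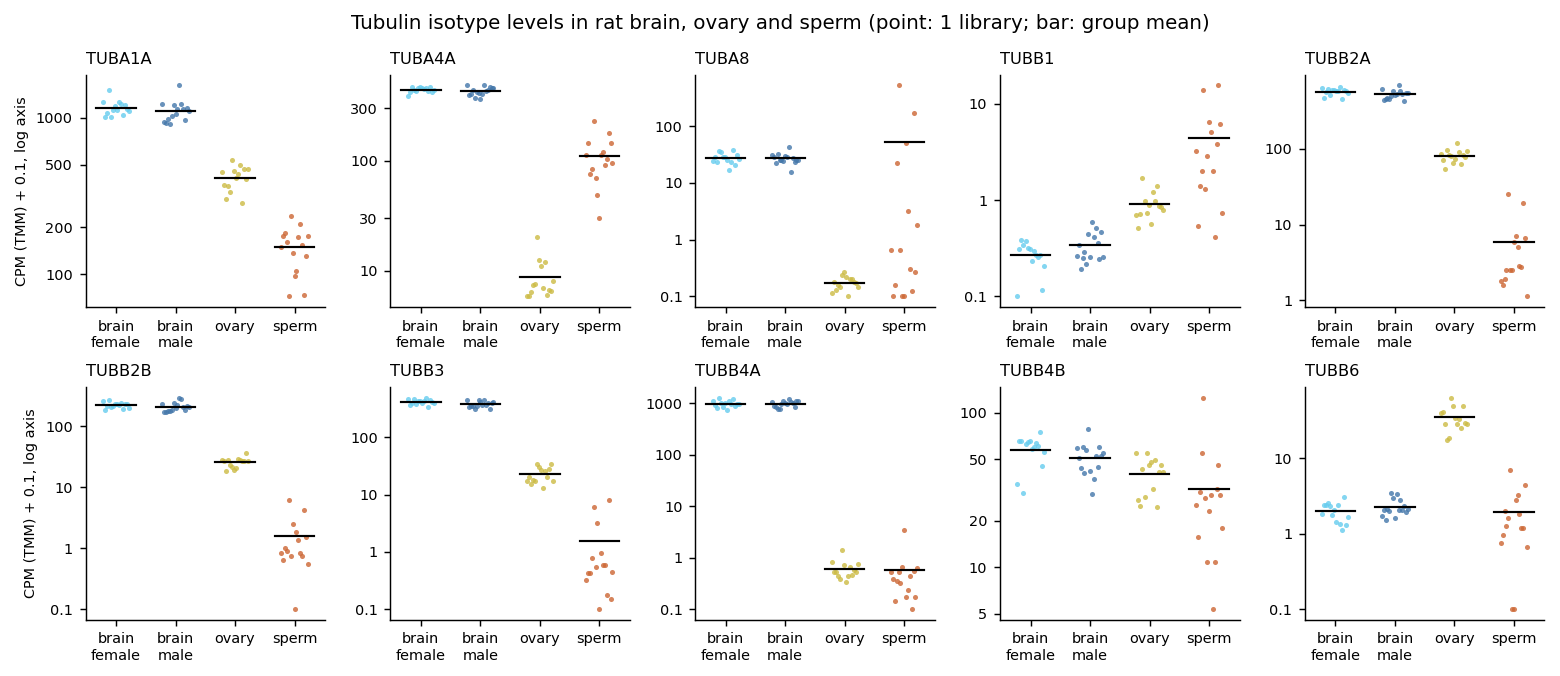
Each panel plots 1 tubulin gene in the 58 rat libraries, with TMM-scaled CPM plus a small constant on a log axis and the female brain, male brain, ovary and sperm groups along the x axis; points are libraries and bars are group means. TUBB4A lies at 747 to 1265 CPM in both brain groups and at or below 3.29 CPM in every ovary and sperm library, while TUBB4B overlaps between all groups.

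Male and female rat brain were then compared. None of the 10 members passed an adjusted p below 0.05 in edgeR's quasi-likelihood test, where 0.18% of the 20570 genes tested did (0.0972% higher and 0.0826% lower in males), and DESeq2 called none either. One member, TUBB3, had an unadjusted p under 0.05, with a log2 difference of -0.13 (male minus female), p = 0.0344 and adjusted p = 0.456. It ran from 313 to 454 CPM (median 371) in males and from 340 to 490 CPM (median 421) in females, so the sexes overlapped.

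**Figure D2:**
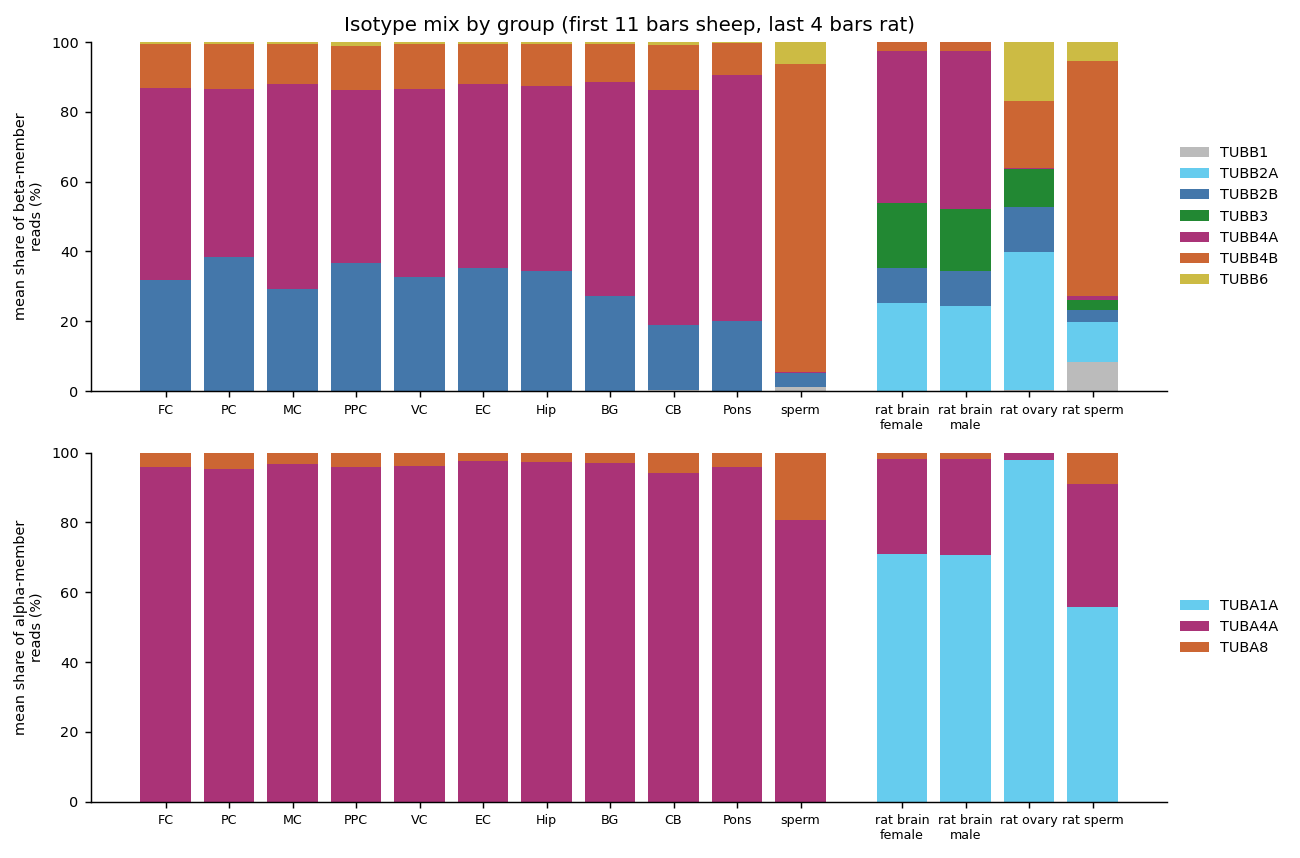
Stacked bars give the mean share (%) of each member in the reads of the beta members (top) and alpha members (bottom) for 11 sheep groups (n = 5 each) and 4 rat groups (n = 14 or 15); sheep bars hold 5 beta and 2 alpha members and rat bars 7 and 3. TUBB4B fills 88.3% of the sheep sperm bar and 67.2% of the rat sperm bar, against 11.9% over sheep brain and 2.41% in male rat brain. The bars leave out tubulins that are no members. Over all 9 rat beta genes, TUBB4B took 11.3% of rat sperm reads and TUBB5 took 82.8%.

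Ovary carried a different tubulin mix from brain, with the nervous-tissue isotypes lower and TUBB6 and TUBB1 higher. Of the 10 members, 2 rose and 7 fell under the rule for tissues, an adjusted p below 0.05 together with a log2 change of 1 or more in either direction. Of the 20801 genes tested, 56.9% met it, 27.7% as a rise and 29.2% as a fall. The median log2 fold change of the members was -2.96, and that of all genes was 0.02. The groups did not overlap for 9 of the 10 members, and TUBB4B was the exception. Scaled by plain library totals, TUBA1A, TUBB2A, TUBB2B and TUBB3 overlapped as well, and 9 members were still called. How many of all genes do not overlap between ovary and brain was not computed. Leaving out any single rat left 9 members called.

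Among the alpha members, TUBA1A (chr7:131992151-131996850, GRCr8) ran from 1011 to 1497 CPM in female brain (median 1133) and from 286 to 540 CPM in ovary (median 426). It fell by 1.47 on the log2 scale (SE 0.09, adjusted p = 2.32e-16 in edgeR), the smallest change among the called members. TUBA4A (chr9:84158871-84174041) went from 391 to 473 CPM (median 443) in brain to 5.74 to 20.1 CPM (median 7.12) in ovary, and fell by 5.66 (SE 0.18, adjusted p = 4.19e-23). All 14 ovaries therefore lay far below the lowest brain for TUBA4A. TUBA8 (chr4:156110562-156129065), a divergent alpha isotype, ran from 17 to 37.4 CPM (median 27.3) in brain. In ovary it lay between 0 and 0.17 CPM (median 0.0746), and it fell by 8.45 (SE 0.22, adjusted p = 3.14e-25). The ovary of rat 24 had no TUBA8 read, where 3 counts would be 0.0572 CPM of the plain library total. TUBA1A took 98% ± 0.634 of the reads of the 3 alpha members in ovary. Of the reads of all 8 alpha genes it took 27.4% ± 2.82, with TUBA1B at 51.1% ± 2.7 (783 ± 167 CPM) and TUBA1C at 20.7% ± 1.55 (320 ± 81.5 CPM). In these ovaries the log2 ratio of TUBA1A to TUBA4A went from 1.38 ± 0.17 in female brain to 5.66 ± 0.43. Tuba1a lies inside the span of Tuba1c, and Tuba4a and Tubb4b overlap LOC102554903 and Cimip2a. The strand and multi-mapping settings of the counting are unknown from these sources, so reads shared with those genes cannot be told apart.

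TUBB4A (chr9:2004836-2012281) showed the widest gap between brain and ovary. It ran from 747 to 1265 CPM in female brain (median 963) and from 0.234 to 1.31 CPM in ovary (median 0.434), a log2 fold change of -10.88 (SE 0.22, adjusted p = 5.17e-28, edgeR). The highest ovary was far below the lowest brain. TUBB3 (chr19:68365687-68374741) went from 340 to 490 CPM to 13 to 34.1 CPM (median 20.2), with a log2 fold change of -4.20 (SE 0.13, adjusted p = 4.16e-23). TUBB2A (chr17:31002186-31006057) ran from 448 to 643 CPM in brain and 54.5 to 117 CPM in ovary, a log2 fold change of -2.80 (SE 0.09, adjusted p = 7.6e-23). Its neighbour TUBB2B (chr17:30953086-30956133) ran from 187 to 271 CPM and 18.4 to 36.6 CPM, a log2 fold change of -3.12 (SE 0.08, adjusted p = 5.14e-25). These 2 genes are close in sequence as well as position, so the split of reads between them is uncertain. Their log2 ratio was 1.33 ± 0.08 in female brain and 1.65 ± 0.27 in ovary.

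TUBB6 (chr18:63213287-63222926) changed the other way. It ran from 1.03 to 2.99 CPM in female brain (median 1.83) and from 17.6 to 63.8 CPM in ovary (median 31.6), and rose by 4.22 (SE 0.20, adjusted p = 1.23e-18). TUBB1 (chr3:183666189-183675656) went from 0 to 0.287 CPM (median 0.184) to 0.419 to 1.6 CPM (median 0.753), and rose by 2.19 (SE 0.25, adjusted p = 1.48e-09). Both remained separate between the tissues in every rat, although TUBB1 stayed near 1 CPM. A megakaryocyte and platelet list of 7 genes summed to 6.3 to 14.8 CPM in ovary, with GP1BB at 0, and its part in the TUBB1 result was not tested. TUBB4B (chr3:28435999-28438455) ran from 30.2 to 74.8 CPM in brain (median 61.5) and from 24.5 to 55 CPM in ovary (median 42.5). It was lower in the ovary of 11 of 14 rats and had a log2 fold change of -0.52 (adjusted p = 0.00123), under the fold threshold. Of the reads of the 7 beta members in ovary, TUBB4B made up 19.3% ± 3.28, TUBB6 16.9% ± 4.94, TUBB2A 39.5% ± 6.36, TUBB2B 12.7% ± 2.43, TUBB3 11% ± 2.61 and TUBB4A 0.245% ± 0.0998. Most ovarian beta tubulin reads were those of TUBB5, which is no member: it ran from 516 to 939 CPM and took 77.6% ± 2.88 of the reads of all 9 beta genes, with TUBB2A at 8.95% ± 2.57 and TUBB4B at 4.3% ± 0.847. TUBB5 had a log2 fold change of 0.53 in ovary (adjusted p = 1.22e-06 in edgeR), under the fold threshold.

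Rat sperm had little of the same nervous-tissue isotypes, while TUBB4B overlapped brain. Of the 10 members, 1 rose and 6 fell, under a rule that 59.1% of the 20480 genes tested met (27.7% rose, 31.5% fell). The median log2 fold change was -2.40 for the members and -0.03 for all genes. The groups did not overlap for TUBA1A, TUBA4A, TUBB2A, TUBB2B, TUBB3 and TUBB4A. Scaled by plain library totals, TUBA1A and TUBA4A overlapped brain, and the same members passed the rule. The share of all genes without overlap between sperm and brain was not computed.

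TUBB4A ran from 768 to 1207 CPM in male brain (median 993) and from 0 to 3.29 CPM in sperm (median 0.276), a log2 fold change of -11.11 (SE 0.59, adjusted p = 3.18e-17). The sperm of rat 6 had no TUBB4A read in 42.9 M counts, where 3 counts would be 0.07 CPM of the plain library total. TUBB3 ran from 313 to 454 CPM in brain and from 0 to 7.97 CPM in sperm (median 0.45), a log2 fold change of -7.97 (SE 0.70, adjusted p = 7.26e-12). The 2 highest sperm values of TUBB3 were 7.97 CPM in rat 7 and 6.08 CPM in rat 14. TUBB2B went from 169 to 295 CPM to 0 to 6.04 CPM (median 0.812), a log2 fold change of -7.07 (SE 0.46, adjusted p = 5.4e-15). TUBB2A went from 429 to 688 CPM to 1.03 to 25 CPM (median 2.68), a log2 fold change of -6.42 (SE 0.46, adjusted p = 5.1e-14). Rats 14 and 7 were again the highest for both, with 25 and 18.9 CPM of TUBB2A. TUBA1A ran from 917 to 1619 CPM in brain (median 1109) and from 72.2 to 235 CPM in sperm (median 155), a log2 fold change of -2.87 (SE 0.15, adjusted p = 2.41e-17). Unlike TUBB3, TUBB2B and TUBB2A, TUBA1A was lowest in rats 14 and 7, at 72.2 and 73.9 CPM.

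TUBA4A fell less, from 368 to 488 CPM in brain (median 434) to 29.9 to 229 CPM in sperm (median 104), with a log2 fold change of -1.93 (SE 0.19, adjusted p = 1.29e-10). Its sperm values were highest in rats 14 and 7, at 229 and 180 CPM. TUBB1 was the member that rose. It ran from 0.0948 to 0.495 CPM in brain (median 0.188) and from 0.31 to 15.5 CPM in sperm (median 2.77), was higher in 14 of 15 rats, and had a log2 fold change of 4.21 (SE 0.51, adjusted p = 7.89e-09). The platelet list summed to 16.7 to 58.3 CPM in rat sperm and 3.35 to 5.56 CPM in male brain, with GP1BB at 0 in both. A red blood cell list of 4 genes summed to 555 to 16986 CPM and 132 to 651 CPM. The part of blood cells in the TUBB1 result was not tested. The highest TUBB1 values, 15.5 and 13.8 CPM, were in rats 7 and 14, which also had the highest summed spermatid lists, at 26881 and 36224 CPM.

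TUBB4B, TUBB6 and TUBA8 did not pass the rule. TUBB4B ran from 29.9 to 78.2 CPM in brain (median 52.5) and from 5.27 to 125 CPM in sperm (median 28.1), and was lower in the sperm of 14 of 15 rats. Its log2 fold change was -0.61 (adjusted p = 0.0584). Without rat 14, the rat with 125 CPM, it was -1.09 with an adjusted p of 0.000347, which met the rule. TUBB6 ran from 1.44 to 3.37 CPM in brain and from 0 to 6.82 CPM in sperm, with a log2 fold change of -0.21 (adjusted p = 0.693). Of the reads of the 7 beta members in sperm, TUBB4B made up 67.2% ± 16.0 (lowest 30.7%, highest 88.3%). TUBB2A made up 11.6% ± 7.01, TUBB1 8.25% ± 5.19, TUBB6 5.43% ± 5.86 and TUBB4A 1.41% ± 2.16. Counted over all 9 beta genes, TUBB5 took 82.8% ± 17.3 of the sperm reads, and TUBB4B took 11.3% ± 11.3, from 1.68 to 47.4%. TUBB5 ran from 85.2 to 372 CPM in sperm and from 419 to 613 CPM in male brain, a log2 fold change of -0.87 (adjusted p = 7.5e-06 in edgeR) that was under the fold threshold. The beta members together had only 659 to 9383 reads per sperm library, against 33954 to 155632 in male brain, so the sperm shares are the less precise.

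TUBA8 varied more among the rat sperm libraries than any other member. It ran from 15.7 to 43.1 CPM in male brain (median 25.5) and from 0 to 527 CPM in sperm, with a sperm median of 0.545 CPM. Sperm of rat 14 had 527 CPM, rat 7 had 173, rat 3 had 50 and rat 13 had 22.7, and the other 11 rats had 3.13 CPM or less. Rats 11, 16 and 17 had no read, and 3 counts would be at most 0.219 CPM of the plain library total there. Sperm was higher than brain in 3 of 15 rats, and the direction of the fitted difference depended on the fit: the log2 fold change was 1.04 (adjusted p = 0.362) in edgeR, -0.46 (adjusted p = 0.677) without rat 14, -1.96 (adjusted p = 0.0199) in DESeq2 and -5.11 (adjusted p = 0.00283) with the rat as a replicate block. The 3 libraries with the highest spermatid sums, those of rats 14, 7 and 3 (36224, 26881 and 11114 CPM), were the 3 highest for TUBA8. They were also the 3 highest for the testis alpha tubulin Tuba3a, with 717, 252 and 133 CPM, and for Tuba3b, with 524, 161 and 90.5 CPM. Rat 10, with the next spermatid sum of 7782 CPM, had 0.545 CPM of TUBA8 and 0.892 CPM of Tuba3a. In rat 14 TUBA8 made up 63.6% of the alpha-member reads, against a median of 0.179% over the 15 rats. Of all 8 alpha genes it made up at most 19.8%, and TUBA1B took 45.3% ± 15.1. Cell makeup was not tested as a source of this spread.

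**Figure D3:**
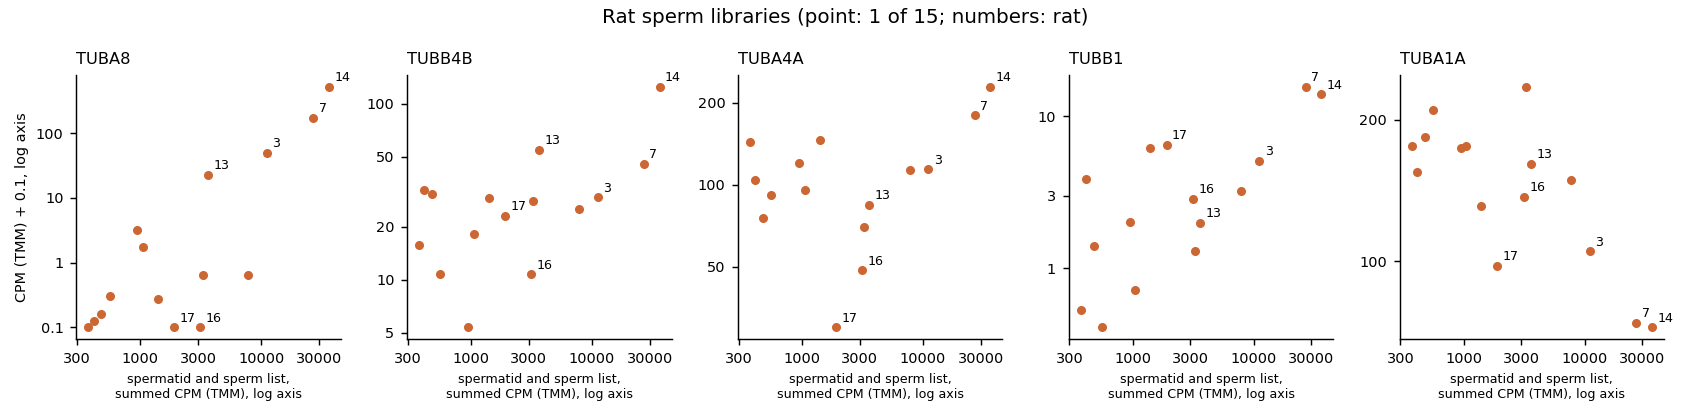
Each panel plots 1 member (TUBA8, TUBB4B, TUBA4A, TUBB1 or TUBA1A) in the 15 rat sperm libraries against the summed level of the spermatid and sperm list, both in TMM-scaled CPM on log axes, with points as libraries and numbers naming rats. TUBA8 spans 0 to 527 CPM and is highest in rats 14, 7 and 3, while TUBA1A is lowest in rats 14 and 7.

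In the sheep brain, all 7 members differed among the 10 regions in edgeR's test of any difference, as 76.7% of 21147 genes did. The adjusted p ran from 6.88e-09 for TUBB1 to 0.0136 for TUBB4B. With each region compared to the average of the remaining 9, the members' calls fell in 3 regions only. Cerebellum had 4 members higher and 1 lower, where 60.7% of all genes were called, 29.1% higher and 31.6% lower. Pons had 3 higher and 2 lower, where 48.3% of all genes were called, 25.7% higher and 22.6% lower. Basal ganglia had 4 lower, where 27.6% of all genes were called and 13% were lower. No member was called in FC (7.85% of genes called), PC (6.31%), MC (3.55%), PPC (10.4%), VC (5.65%), EC (3.36%) or Hip (11%). In total 14 of 70 tests passed, 20%, against 18.5% for all genes over the same 10 contrasts, which share libraries. The regions are given in the order of their means, each over 5 sheep, and a step between neighbours is named where it exceeded the larger of the 2 SDs.

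TUBB4A, the isotype of myelinating oligodendrocytes and neurons, had its highest level in pons. Sheep 687, 688, 690, 694 and 699 had 1811, 1309, 818, 739 and 2250 CPM there, and 302, 396, 429, 394 and 253 CPM in prefrontal cortex, the lowest region. Every sheep was higher in pons than in its prefrontal cortex. The means ran from 1385 ± 647 CPM in pons through 776 ± 81.3 in CB, 769 ± 318 in MC, 609 ± 177 in FC, 561 ± 295 in EC, 525 ± 206 in Hip, 508 ± 214 in BG, 483 ± 227 in VC and 362 ± 92.8 in PPC to 355 ± 74.1 in PC, a 3.9-fold range. No step between neighbours exceeded their SD. Pons was higher than the other regions by 1.42 on the log2 scale (SE 0.21, adjusted p = 4.68e-07, edgeR). In PPC the log2 difference of -0.77 had an adjusted p of 0.0513 in edgeR, and with the sheep as a replicate block it was -0.78 with 0.0425. It was also called with RLE factors (adjusted p = 0.0472), upper quartile factors (0.0498), plain library totals (-0.90, 0.0215) and DESeq2 (0.0185). In PC the difference was -0.81 (adjusted p = 0.0552 in edgeR, 0.0165 in DESeq2), and -0.87 with plain library totals (adjusted p = 0.0337).

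A list of 6 oligodendrocyte genes summed to 15636 to 77259 CPM in the 5 pons libraries, against a median of 5257 CPM over the 50 brain libraries. Pons was also highest for a list of 5 astrocyte genes, at 12923 to 17679 CPM, against at most 7633 CPM in any other region. The pons of sheep 699 ranked first of 50 in both the oligodendrocyte list and TUBB4A (77259 and 2250 CPM). The one library outside pons among the 5 highest oligodendrocyte sums was motor cortex of the same sheep (28351 CPM), which ranked 3 of 50 for TUBB4A with 1324 CPM. Cerebellum was second in mean TUBB4A with oligodendrocyte sums of only 1151 to 7019 CPM. How far oligodendrocyte or astrocyte content accounts for the TUBB4A levels was not tested.

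**Figure D4:**
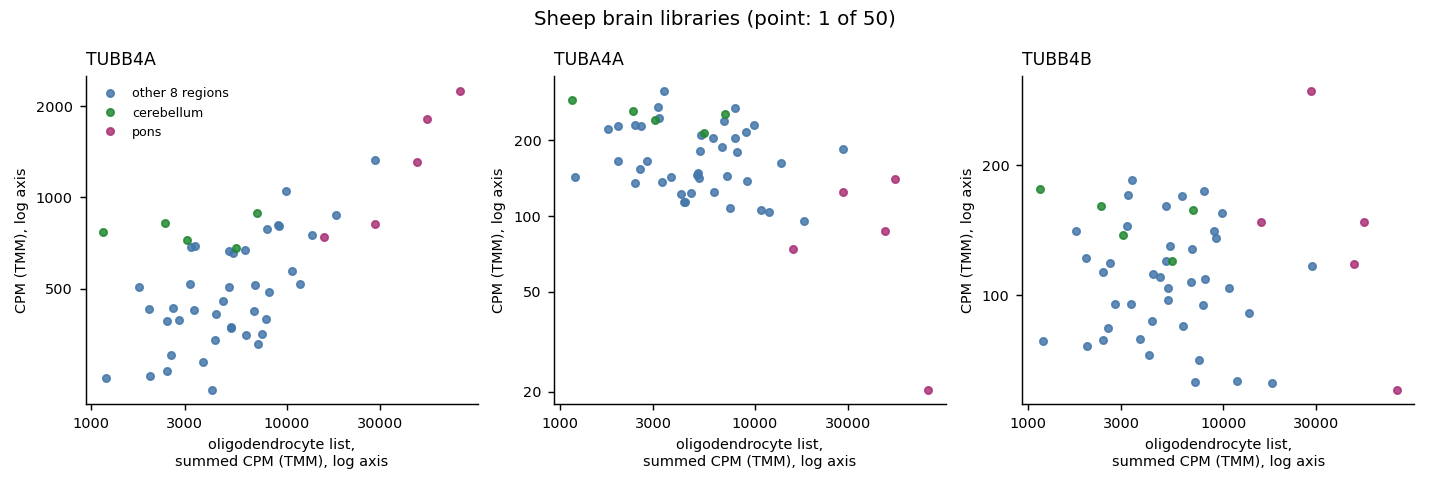
TUBB4A, TUBA4A and TUBB4B in the 50 sheep brain libraries (points) are plotted against the summed level of 6 oligodendrocyte genes, both in TMM-scaled CPM on log axes, with pons, cerebellum and the other 8 regions in separate colours. Pons libraries, at 15636 to 77259 CPM of the list, hold the 2 highest TUBB4A values (2250 and 1811 CPM) and the lowest TUBA4A value (20.4 CPM).

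TUBA4A ran opposite to TUBB4A in pons. It was 140, 87.3, 125, 73.6 and 20.4 CPM in the pons of sheep 687, 688, 690, 694 and 699, and 242, 255, 213, 261 and 289 CPM in their cerebellum. The means went from 252 ± 27.9 CPM in CB through 223 ± 54.9 in FC, 205 ± 41.8 in MC, 203 ± 70.1 in VC, 179 ± 36.3 in PC, 171 ± 41.6 in PPC, 147 ± 49.9 in EC, 137 ± 38.8 in Hip and 131 ± 37.4 in BG to 89.3 ± 47.1 in pons, and no step exceeded the SD. TUBA4A was lower in pons by -0.97 on the log2 scale (SE 0.23, adjusted p = 0.000416) and higher in cerebellum by 0.64 (SE 0.20, adjusted p = 0.00453). The pons of sheep 699, lowest of all 50 libraries for TUBA4A, had a neuron list sum of 560 CPM. The log2 ratio of TUBB4A to TUBA4A was 4.08 ± 1.58 in pons, and its mean in the other 9 regions lay between 0.98 and 1.91.

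TUBA8 had its highest mean in cerebellum. Its 5 cerebellar values were 19.7, 15, 15.1, 11.2 and 16.4 CPM, against 3.43, 3.45, 3.51, 3.81 and 4.57 CPM in basal ganglia and 4.34, 3.04, 2.53, 4.23 and 1.42 CPM in pons. In every sheep the cerebellum was above both. It was not above every region: frontal cortex of sheep 688 had 15.6 CPM and motor cortex of sheep 694 had 13.2 CPM, both above that sheep's cerebellum. The means went from 15.5 ± 3.04 CPM in CB to 9.79 ± 5.06 in FC, 8.83 ± 1.8 in PC, 7.82 ± 2.65 in VC, 7.42 ± 4.41 in MC, 7.02 ± 2.14 in PPC, 4.03 ± 2.98 in EC, 3.8 ± 0.985 in Hip, 3.75 ± 0.483 in BG and 3.11 ± 1.22 in pons. The steps from CB to FC and from PPC to EC exceeded the SD. TUBA8 was higher in cerebellum by 1.42 (SE 0.24, adjusted p = 2.82e-06) and lower in pons by -1.10 (SE 0.31, adjusted p = 0.00295). In basal ganglia it was lower by -0.82 (SE 0.30, adjusted p = 0.0378), and that call was lost without any one of sheep 687, 688, 690 and 694 (adjusted p 0.0581 to 0.115). TUBA8 made up 5.83% ± 1.29 of the reads of the 2 alpha members in cerebellum and 3.79% ± 1.43 over all brain libraries, the other being TUBA4A.

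TUBB1 was low in the brain but separated the cerebellum completely. It was 3.25, 2.52, 2.2, 2.73 and 2.58 CPM in cerebellum and between 0.558 and 1.54 CPM in the other 45 libraries. The means were 2.66 ± 0.385 CPM in CB, then 1.03 ± 0.35 in Hip, 0.955 ± 0.147 in FC, 0.903 ± 0.31 in VC, 0.901 ± 0.32 in BG, 0.89 ± 0.228 in EC, 0.876 ± 0.155 in PPC, 0.848 ± 0.0948 in pons, 0.8 ± 0.137 in PC and 0.795 ± 0.102 in MC. Only the step from CB to Hip exceeded the SD. The log2 difference of cerebellum was 1.56 (SE 0.15, adjusted p = 1.91e-12). Of all genes 60.7% were called in cerebellum, and how many separate it without overlap was not computed. The platelet list summed to 4.38 to 5.48 CPM there and to 4.38 to 18.2 CPM over all brain libraries. Of its 7 genes 3 were tested in cerebellum, where 1 was called higher and 2 lower, and its part in the TUBB1 result was not tested.

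TUBB6 was also highest in cerebellum. It was 7.59, 8.83, 6.35, 12.1 and 8.1 CPM there and 3.77, 3.4, 3.1, 3.69 and 3.94 CPM in basal ganglia, with no overlap between those regions. How many of all genes separate those regions was not computed. The means went from 8.59 ± 2.14 CPM in CB through 7.13 ± 3.35 in PPC, 6.41 ± 2.09 in Hip, 5.79 ± 1.18 in EC, 5.59 ± 3.35 in FC, 5.14 ± 1.23 in VC, 4.87 ± 0.651 in pons, 4.73 ± 0.839 in PC and 4.08 ± 1.49 in MC to 3.58 ± 0.331 in BG, with no step above the SD. Cerebellum was higher by 0.71 (SE 0.19, adjusted p = 0.0016) and basal ganglia lower by -0.66 (SE 0.22, adjusted p = 0.0223). The basal ganglia call was lost without sheep 688, 690 or 694 (adjusted p 0.0516 to 0.0575).

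TUBB2B and TUBB4B varied least among regions, by 1.7-fold and 1.86-fold between the highest and lowest means. TUBB2B was 188, 249, 224, 192 and 232 CPM in cerebellum and 239, 219, 233, 185 and 183 CPM in basal ganglia, the 2 lowest regions. The other means lay between 263 ± 43 in PPC and 360 ± 49.9 in MC, in the order MC, pons (343 ± 113), FC (341 ± 66.1), EC (336 ± 45.9), Hip (327 ± 79.6), PC (279 ± 47.8), VC (265 ± 52.6) and PPC, and the step from PPC to CB (217 ± 26.6) exceeded the SD. TUBB2B was lower in basal ganglia by -0.49 (SE 0.13, adjusted p = 0.00378) and in cerebellum by -0.48 (SE 0.13, adjusted p = 0.00172). With plain library totals the cerebellar difference was -0.26 (adjusted p = 0.0911). It was higher in pons by 0.30 (SE 0.12, adjusted p = 0.0371), at 308, 329, 521, 347 and 210 CPM, and without sheep 690 this was 0.13 (adjusted p = 0.448).

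TUBB4B was 148, 118, 298, 148 and 60.4 CPM in pons and 84.9, 63.2, 62.7, 97.6 and 107 CPM in basal ganglia. Pons spanned both the highest and the lowest brain library. The means were 154 ± 88 CPM in pons, 151 ± 21.7 in CB, 141 ± 23.3 in MC, 139 ± 28.1 in FC, 115 ± 39.4 in Hip, 114 ± 27.6 in EC, 110 ± 45.3 in VC, 94.9 ± 16.7 in PC, 92.3 ± 22.9 in PPC and 83.1 ± 20 in BG, with no step above the SD. The pons difference of 0.48 (SE 0.18, adjusted p = 0.0297) was 0.05 (adjusted p = 0.857) without sheep 690. The basal ganglia difference was -0.53 (SE 0.20, adjusted p = 0.0437) and was lost without any one of sheep 687, 688, 690 and 694 (adjusted p 0.0763 to 0.214). In cerebellum the difference was 0.39 (SE 0.19, adjusted p = 0.0679 in edgeR), without a call. It was called with the sheep block (0.42, adjusted p = 0.0432) and with plain library totals (0.61, adjusted p = 0.00382). The call also appeared without sheep 687 (0.49, adjusted p = 0.0446) and without sheep 690 (0.46, adjusted p = 0.0298).

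As shares of the 5 beta members, TUBB4A made up 57% ± 10.4 of the reads over the 50 brain libraries, TUBB2B 30.4% ± 8.54 and TUBB4B 11.9% ± 2.84. Pons and cerebellum had the highest TUBB4A shares, 70.5% ± 15.7 and 67.2% ± 1.84, and prefrontal cortex the lowest, 48.1% ± 3.51. The pons share ran from 49.8 to 89.1% and the cerebellar share from 64.6 to 69.1%, so cerebellum was far more alike from sheep to sheep. TUBB2B went the other way, with 18.8% ± 2.07 in cerebellum and 38.2% ± 3.03 in prefrontal cortex. TUBB4B kept 9.14 to 13% as a mean in all 10 regions. With TUBB, the class I beta tubulin, counted too, TUBB4A made up 49.8% ± 11.1 over the 50 libraries and TUBB 13.1% ± 3.97. These shares have no test.

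**Figure D5:**
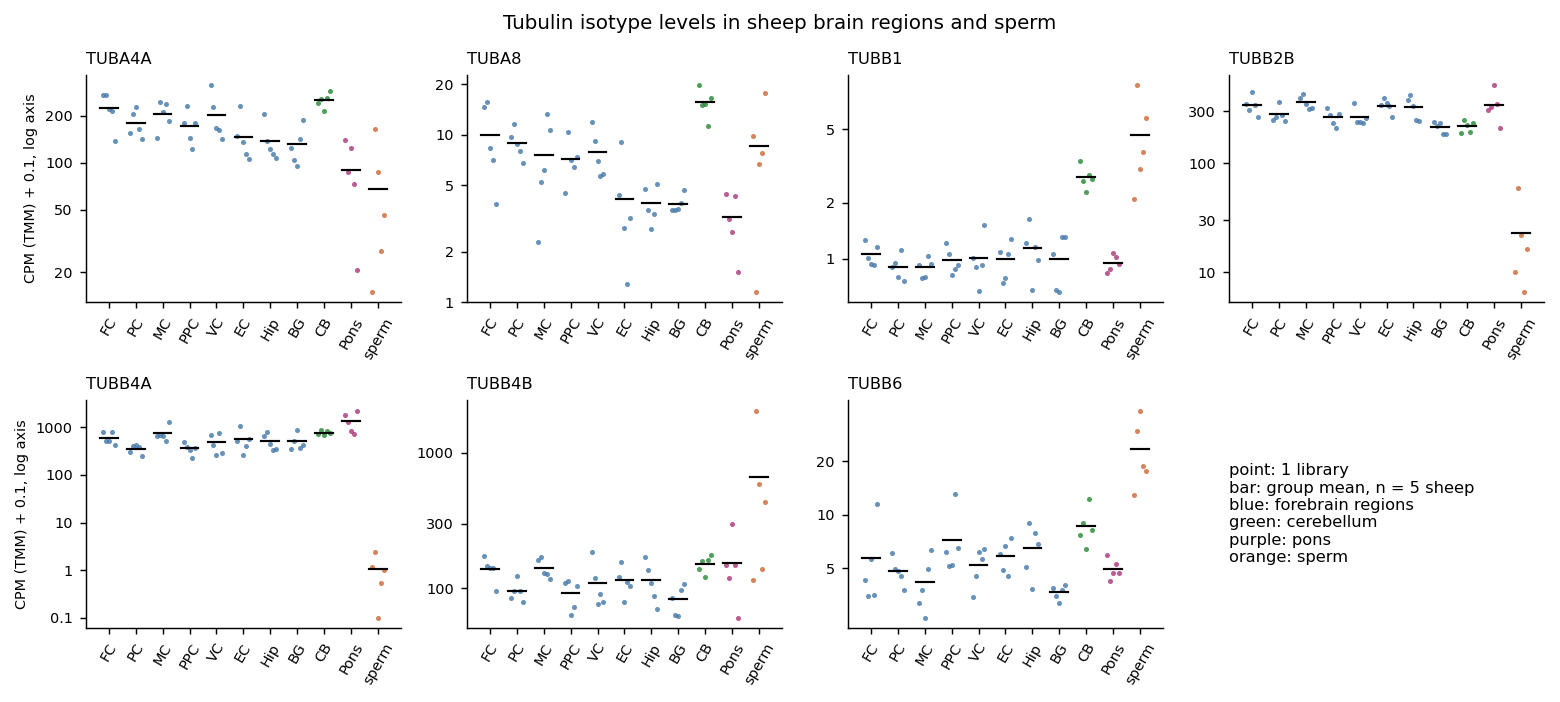
Each panel plots 1 of the 7 members found in sheep, with TMM-scaled CPM plus a small constant on a log axis against the 10 brain regions and sperm; points are libraries, bars are means of 5 sheep and colours mark forebrain, cerebellum, pons and sperm. TUBB1 in cerebellum (2.2 to 3.25 CPM) stands above all other brain libraries, and TUBB4A drops to 2.27 CPM or less in sperm.

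Over the 10 region means, the genes whose pattern was most like each member were found by Pearson's r of log2(CPM + 1), as a description without a test, since the points share libraries. For each member 10165 or 10166 genes were searched over these 10 points, so high values can arise by selection alone. For TUBA4A they included TBC1D30 (r = 0.987) and AP3D1 (0.986). TUBA8 was nearest to PPIP5K1 (0.986), CACNG2 (0.970) and OSBPL6 (0.970). TUBB1 was nearest to ZXDC (0.991), ABT1 (0.991) and CCDC82 (0.990), and TUBB2B to TBCB (0.937), PDE1A (0.924) and SULF1 (0.923). TBCB is a folding cofactor that acts on alpha tubulin. TUBB4A was nearest to EXOC4 (0.977), INSIG2 (0.969) and SMPD1 (0.961), TUBB4B to ABHD6 (0.963), PSAP (0.956) and OTUD7A (0.939), and TUBB6 to BRD2 (0.927), TYK2 (0.919) and MINDY2 (0.913). Between members the highest values were 0.872 for TUBA4A with TUBA8, 0.779 for TUBB4A with TUBB4B and 0.719 for TUBB1 with TUBB6.

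In sheep sperm most reads of the 5 beta members were those of TUBB4B, the isotype known from flagella, and TUBB4A and TUBB2B were low. Of the 7 members, 3 rose and 3 fell against the mean of the 10 brain regions, under a rule that 74.2% of the 21859 genes tested met (33.1% rose, 41.1% fell). The median log2 fold change was 0.44 for the members and -0.42 for all genes. Scaling mattered here, because a few genes took most of the reads in several sperm libraries. Over all genes 7239 were called higher and 8976 lower with TMM, 8907 and 6980 with upper quartile factors (median shift 0.73), and 3249 and 15084 with plain library totals (median shift -2.42).

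TUBB4B was 115, 2051, 588, 139 and 436 CPM in the sperm of sheep 687, 688, 690, 694 and 699, against 60.4 to 298 CPM over the brain libraries (median 115). Sperm was above the sheep's own brain mean in 4 of 5, and the groups overlapped. The log2 fold change was 2.51 (SE 0.24, adjusted p = 7.89e-14), and it was 0.20 (adjusted p = 0.552) with plain library totals. The fit took 1 spread per gene from all 55 sheep libraries, 50 of them brain, without pairing by sheep. The SD of TUBB4B was 120% of its mean in sperm and 35.8% in brain. Its SE and p therefore do not measure the spread between sperm samples alone. The other sheep sperm SEs come from the same fit. The library of sheep 688, with 2051 CPM, also had the highest neutrophil sum (158833 CPM) and squamous epithelium sum (92301 CPM) and the lowest spermatid sum (250 CPM) of the 5. The part of those cells in the TUBB4B level, and in the TUBB4B share that follows, was not tested. The share does not depend on scaling: TUBB4B made up 88.3% ± 5.93 of the reads of the 5 beta members in sperm (81.7 to 95.4%), above every brain library (2.39 to 18.2%). The highest of the sperm shares was that of sheep 688, the library with the lowest spermatid sum. With TUBB counted too, TUBB4B made up 86.6% ± 6.73 in sperm. TUBB2A and TUBB3 were not analysed in sheep and are in neither share.

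TUBB1 was 2.01, 8.58, 2.96, 3.66 and 5.62 CPM in sperm and 0.558 to 3.25 CPM in brain. It had a log2 fold change of 2.23 (SE 0.18, adjusted p = 4.2e-16), which turned to -0.14 (adjusted p = 0.59) with plain library totals. TUBB6 was 12.8, 29.4, 38.5, 18.8 and 17.6 CPM in sperm against 2.53 to 13 CPM in brain, with a log2 fold change of 2.10 (SE 0.18, adjusted p = 7.41e-15) that turned to -0.28 (adjusted p = 0.291) with plain totals. Both were higher in 5 of 5 sheep with TMM scaling and overlapped brain slightly. The platelet list summed to 1.44 to 7.79 CPM in sheep sperm and 4.38 to 18.2 CPM in brain, and its part in the TUBB1 result was not tested. TUBA8 was 9.67, 1.05, 6.58, 7.66 and 17.6 CPM, lowest in sheep 688, against 1.18 to 19.7 CPM in brain. Its log2 fold change of 0.44 (adjusted p = 0.194) was 1.25 (adjusted p = 0.000203) with upper quartile factors and -2.11 (adjusted p = 9.07e-07) with plain totals, so it has no stable direction. As a share, TUBA8 made up 19.4% ± 15.7 of the reads of the 2 alpha members in sperm, from 0.633% in the lowest library to 39.6% in the highest.

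The falling members kept their direction under every scaling tried. TUBB4A was 1.07, 2.27, 0, 0.444 and 0.899 CPM in sperm against 232 to 2250 CPM in brain, and its log2 fold change was -9.09 (SE 0.51, adjusted p = 2.15e-22). Sperm of sheep 690 had no TUBB4A read in 13.7 M counts, where 3 counts would be 0.219 CPM of the plain library total. The TMM factor of that library was 0.2219, so the limit is higher on the scale of the values above. It does not set this library below all the other sheep. TUBB2B was 9.94, 59, 21.7, 6.44 and 16 CPM against 183 to 521 CPM, a log2 fold change of -3.67 (SE 0.29, adjusted p = 1.6e-16). No sperm library reached the lowest brain library for either gene. The share of all genes without overlap between sheep sperm and brain was not computed. TUBA4A was 14.8, 165, 86.9, 27.1 and 46.1 CPM in sperm, overlapping the brain range of 20.4 to 315 CPM but lower in 5 of 5 sheep. Its log2 fold change was -1.30 (SE 0.31, adjusted p = 0.000154), and it came to -0.65 (adjusted p = 0.0255) with upper quartile factors, which misses the fold threshold. It also just missed that threshold without sheep 687 (adjusted p = 0.00349).

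The sperm minus brain difference was then compared between sheep and rat for the 7 members in both tables, with the 10 regions of each sheep summed. Of the 7, 4 differed, under a rule that 62.3% of 15172 shared genes met (23.9% above, 38.4% below), and the median over all genes was -0.69. The sheep difference was above the rat one by 3.05 for TUBB4B (SE 0.68, adjusted p = 0.000147), by 3.29 for TUBB2B (SE 0.74, adjusted p = 0.000193) and by 2.32 for TUBB6 (SE 0.83, adjusted p = 0.0137). TUBB1 was below by -2.26 (SE 0.87, adjusted p = 0.0219). These 4 kept their signs under every alternative run. TUBB1 was no longer called with the animal block (-1.70, adjusted p = 0.106) or with RLE factors (-1.48, adjusted p = 0.142). It was also not called with upper quartile factors (-1.56, adjusted p = 0.104), with DESeq2 (-1.48, adjusted p = 0.113), or without sheep 687 or 694. Neither TUBB1 nor TUBB6 was called without sheep 690 (TUBB6 2.05, adjusted p = 0.052). TUBB4A differed by 1.66 (adjusted p = 0.0995), with the block by 2.23 (adjusted p = 0.0352), without rats 16 and 17 by 2.63 (adjusted p = 0.000449) and with DESeq2 by -3.69 (adjusted p = 0.0606), so it has no stable direction. TUBA4A differed by 0.57 without a call and by 1.35 (adjusted p = 0.00798) with RLE factors. TUBA8 differed by -0.84 in the fit without the block and by 5.15 (adjusted p = 0.0294) with it. Kits, the regional dissection of the sheep brain and the collection of sperm differ between the species, so none of these can be told apart from species.

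The other genes of the microtubule system were described by lists, to be read against the shares of all genes that met the same rule: the sperm of sheep had 33.1% rising and 41.1% falling, that of rats 27.7% and 31.5%, and ovary 27.7% and 29.2%, with median log2 fold changes of -0.42, -0.03 and 0.02. Of the remaining tubulins, gamma tubulin TUBG1, which nucleates microtubules at centrosomes, and delta tubulin TUBD1 of centrioles rose in sheep sperm, and TUBB and TUBE1 fell, 2 and 2 of 4 tested. TUBG1 was 22.7 to 106 CPM in sheep sperm against 8.81 to 24.4 CPM in brain (log2 fold change 2.45, SE 0.12, adjusted p = 3.4e-24). TUBE1 had no read in any sheep sperm library and 2.16 to 7.29 CPM in brain. In rat sperm 1 of 7 rose, TUBD1 (log2 fold change 1.44, SE 0.23, adjusted p = 1.7e-06), and 3 fell, among them TUBG2 (-4.56) and TUBA1B (-1.14). In ovary 1 of 8 rose, TUBA3A, at 0.965 to 4.87 CPM against 0 to 0.244 CPM, and TUBG2 fell by 2.65 on the log2 scale. Among sheep regions TUBB, the class I beta tubulin, ran from a mean of 76.1 CPM in BG to 217 CPM in CB (adjusted p = 7.47e-07), and TUBG1 from 11 in PC to 20.1 in CB (adjusted p = 7.49e-08).

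Tubulin folding genes, the CCT chaperonin subunits and the TBC cofactors that assemble the dimer, changed differently in the sperm of the 2 species. In sheep sperm 0 of 17 rose and 15 fell (median log2 -2.78, and -0.42 for all genes), including CCT8 (-4.51, SE 0.23, adjusted p = 5.69e-24) and CCT5 (-3.09, SE 0.15). In rat sperm 4 rose and 1 fell (median 0.23, and -0.03 for all genes), with PDCL3 at 2.29 (SE 0.19, adjusted p = 2.26e-12), TBCA at 1.61 and TBCEL at -1.21. The test of the difference itself called 16 of the 17 lower in sheep than rat, where 38.4% of 15172 genes were lower. The median was -3.22 against -0.69 for all genes. Kits and the collection of sperm differ here too, and cannot be told apart from species. In ovary 1 rose, TBCA (1.46, SE 0.10), and 1 fell, ARL2 (-1.21, SE 0.06). In cerebellum 9 of 17 were higher and 1 lower, where 29.1% of all genes were higher and 31.6% lower. Among regions TCP1 ran from 86.2 CPM in EC to 151 CPM in CB (adjusted p = 2.42e-08) and TBCEL from 28.9 in BG to 46.6 in CB.

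Enzymes that add or remove groups on the tubulin tails or on lysine changed in both directions. In sheep sperm 9 of 27 rose and 14 fell, against 33.1% and 41.1% of all genes. The glycylase TTLL10 ran from 32.9 to 112 CPM in sheep sperm against 0 to 0.309 CPM in brain (log2 fold change 10.97, SE 0.32, adjusted p = 1.86e-34), and the deglutamylase AGBL3 rose by 5.57 (SE 0.21). The alpha tubulin acetyltransferase ATAT1 fell by 3.62 (SE 0.21) and SVBP, partner of the vasohibin detyrosinases, by 4.63 (SE 0.26). In rat sperm 9 of 28 rose and 10 fell, against 27.7% and 31.5% of all genes, shares close to those of the list. The detyrosinase VASH2 ran from 299 to 927 CPM in rat sperm against 3.02 to 5.09 CPM in brain (log2 fold change 7.09, SE 0.17, adjusted p = 9.06e-26), while its relative VASH1 fell by 4.61 (SE 0.21). The deacetylase HDAC6 rose by 2.61 (SE 0.16) and the tyrosine ligase TTL fell by 1.90 (SE 0.17). In ovary 5 of 29 rose, with SVBP at 1.16 and TTLL12 at 1.00, and 13 fell, with AGTPBP1 at -3.21 and MATCAP1 at -3.19, against 27.7% and 29.2% of all genes. Among sheep regions HDAC6 and TTL ran in opposite orders: HDAC6 from 11.7 CPM in BG to 32.1 in CB (adjusted p = 2.65e-16) and TTL from 24.3 in CB to 93.7 in BG (adjusted p = 4.86e-10).

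Microtubule-associated proteins, many of them neuronal, were mostly lower in all 3 reproductive tissues. In sheep sperm 31 of 41 fell and 4 rose, in rat sperm 28 fell and 5 rose, and in ovary 27 fell and 3 rose, with medians of -3.56, -2.74 and -1.57. Of all genes 41.1%, 31.5% and 29.2% fell, with medians of -0.42, -0.03 and 0.02. The axonal protein MAPT had a log2 fold change of -7.88 (SE 0.26, adjusted p = 2.39e-32) and MAP1A one of -9.26 (SE 0.33) in sheep sperm. The stathmin STMN3 had one of -11.97 (SE 0.49) in rat sperm and -13.06 (SE 0.19) in ovary. The mitotic depolymerase KIF2C rose in all 3, by 4.62 (SE 0.30) in sheep sperm, 6.96 (SE 0.70) in rat sperm and 4.63 (SE 0.21) in ovary. Among sheep regions TPPP3 ran from 11.2 CPM in PC to 150 CPM in pons (adjusted p = 2.07e-12) and DCX, a protein of immature neurons, from 8.01 in CB to 48.4 in BG (adjusted p = 5.14e-11). With plain library totals, all sheep sperm differences in these lists move down with the median shift given above.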

How the data were processed

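The authors deposited 3 count tables for rat (brain, ovary and sperm) and 5 for sheep (1 per animal), holding whole-number counts of reads per gene for 55 sheep and 58 rat libraries. Per the labels' design text, reads were trimmed with Trimmomatic 0.39, aligned with STAR 2.7.5a to ARS-UI_Ramb_v3.0 or GRCr8 and counted with Rsubread 2.20.0 in R 4.4.2. The submitters' processing notes also name DESeq2. Strand and multi-mapping settings were not given in the sources used here.

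From the deposited counts, levels were computed as TMM-scaled CPM over all libraries of a species. Tests used edgeR 4.0.16 (quasi-likelihood, TMM, filterByExpr, prior count 0.125) in R 4.3.3 on all genes passing the filter, with Benjamini-Hochberg adjustment. Region and sex differences were called at an adjusted p below 0.05, and tissue and species differences also needed a log2 change of 1 or more in either direction. All members present in a table passed the filter. The scripts were tested on simulated data. Alternatives were RLE, upper quartile and plain totals, no filter, DESeq2 1.42.0, limma 3.58.1 (voom), the animal as a replicate block, and left-out animals. Gene positions and promoters came from RefSeq tables on GRCr8, in which 38599 rat symbols matched. Read shares were taken over the listed members, with all alpha or beta genes of the table as an alternative added after seeing the data, and were not corrected for length. Limits for 0 reads use 3 counts over the plain library total, without TMM, and cover counting error only.

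The members and lists were chosen with earlier results of these data known. All 10 members were named. From each other list, the text names the 2 genes of lowest adjusted p in each direction among those called, and for regions the 2 of lowest adjusted p. For region patterns the 3 most alike genes were taken per member, and 1 of them is not reported here.

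Brain and reproductive libraries are paired by the animal named in the labels. Deviations from the group means correlated at -0.0747 to 0.228 (median 0.0535) over 15 male rats, at -0.152 to 0.102 over 14 females, and at -0.413 to 0.713 (median 0.179) over 225 pairs of regions of 1 sheep.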

Additional observations from a re-analysis of the deposited data

Results flagged for a closer look

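In 6 of 77 sets of 5 sheep (7 members in 11 tissues), 1 sheep lay so far from the others that the gap exceeded the 95% critical value of Dixon's test, which chance would pass in about 1 in 20. They were TUBB2B in prefrontal cortex of sheep 690 (362 CPM, next 274), TUBB2B in visual cortex of sheep 687 (358, next 259), TUBB4A in motor cortex of sheep 699 (1324, next 686), TUBB4B in sperm of sheep 688 (2051, next 588), TUBB6 in frontal cortex of sheep 699 (11.4, next 5.54) and TUBB6 in posterior parietal cortex of sheep 694 (13, next 6.4). The motor cortex of sheep 699 also had the fourth highest oligodendrocyte sum of the 50 brain libraries, 28351 CPM.

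For 4 members the sperm minus brain difference itself differed between sheep and rat in edgeR's test: TUBB1 by -2.26, TUBB2B by 3.29, TUBB4B by 3.05 and TUBB6 by 2.32 on the log2 scale. The same rule was met by 62.3% of 15172 genes. TUBB4B rose in sheep sperm (2.51) and was lower without a call in rat sperm (-0.61), and TUBB2B fell in both (-3.67 and -7.07).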

How the results depend on the processing

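The counts of members called moved by more than 1.5 times in 3 settings. In the sheep regions 14 calls became 4 when a log2 change of 1 or more was also required, and 9 to 17 when 1 sheep was left out, lowest without sheep 694. Over all genes, 39051 region calls became 8446 higher and 7685 lower with that fold threshold. Without sheep 694 all genes gave 17798 higher and 13515 lower. In the species comparison 4 calls became 2 to 4 when 1 sheep was left out, with the 2 arising without sheep 690. All genes went there from 3619 higher and 5827 lower to 3614 and 5424. Leaving out 1 animal gave 5 or 6 calls in sheep sperm, 7 or 8 in rat sperm and 9 in ovary. Over all genes, sheep sperm had 7307 higher and 8811 lower without sheep 687, against 7239 and 8976. Rat sperm had 4922 and 7091 without rat 14, against 5663 and 6448. The share of TUBB4B in sheep sperm was 86.5 to 90% when 1 sheep was left out, and 86.6% over all beta genes of the table. In rat sperm the TUBB4B share went from 67.2 to 11.3% with that denominator, because TUBB5 is then counted.

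Signs turned, with a call in at least 1 of the fits compared, in 6 cases. With plain library totals the sheep sperm differences were -2.11 for TUBA8, -0.14 for TUBB1 and -0.28 for TUBB6. TUBA8 in rat sperm was -1.96 with DESeq2 and -5.11 with the replicate block, and TUBA8 in the species comparison was 5.15 with the block. Other turns were of differences called in neither fit, among them TUBA8 in rat sperm (-0.46 without rat 14), TUBA8 in sheep sperm (-0.06 without sheep 699) and TUBB4A in the species comparison (-3.69 with DESeq2). The cause was not tested. With the animal as a replicate block, the pairing gave 16 member calls in the regions, 6 in sheep sperm, 8 in rat sperm, 9 in ovary and 5 in the species comparison, against 14, 6, 7, 9 and 4 without it. Over all genes the block gave 25063 higher and 18903 lower in the regions, against 39051 calls without it. Sheep sperm had 7126 and 9142, rat sperm 4384 and 7541, ovary 5681 and 6156, and the species comparison 3205 and 5759. Without the block these were 7239 and 8976, 5663 and 6448, 5763 and 6069, and 3619 and 5827. The block ended 1 member call, TUBB1 in the species comparison.

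Scaling moved the split of all genes in the species comparison from 3619 higher and 5827 lower to 5044 and 3978 with RLE factors (median shift 0.91). In rat sperm the median shift reached -0.35 with DESeq2, and without a filter on low counts the split went from 5663 and 6448 to 12974 and 9093. In ovary it was 0.28 with plain totals. Between the sexes, 20 genes were higher and 17 lower in males with edgeR, 110 and 53 with DESeq2, 14 and 4 with plain totals and 53 and 21 without rats 1 and 4, and no member was called in any of these. Shares corrected for transcript length were not run because no exon lengths were used here. Sperm shares rest on few reads, at least 182 alpha and 1052 beta reads per sheep library and 2367 and 659 per rat library.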
